A study of Mus musculus with 9 samples.

Results

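Small nucleolar RNAs (snoRNAs), small Cajal body RNAs (scaRNAs) and the genes named as snoRNA hosts (Snhg) were followed in mouse embryonic stem cells depleted of Phf5a or Paf1. Members were all genes whose symbol in the platform annotation starts with Snora, Snord, Scarna or Snhg and that have a probe set assigned to that symbol alone, which gave 93 of the 22180 genes tested. They comprised 26 H/ACA snoRNAs (Snora), 47 C/D snoRNAs (Snord), 5 scaRNAs and 15 Snhg genes. Where a gene had several such probe sets, only the brightest by its mean over the 9 arrays entered, so that the choice used levels and no difference between groups. The 93 members were read from 99 probe sets, and 5 members had more than 1. A further 46 probe sets that name such a gene together with another gene were left out, and with them 32 genes that only those probe sets name.

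snoRNAs are short nucleolar RNAs that carry proteins to other RNAs by base pairing. H/ACA snoRNAs guide the conversion of uridine to pseudouridine and C/D snoRNAs guide ribose methylation, mostly in ribosomal RNA, and a few members of each class take part in cutting the ribosomal RNA precursor instead. scaRNAs guide the same modifications in the small nuclear RNAs of the spliceosome. In mammals nearly all are cut out of introns of other genes after splicing, while a few, such as Snord118 (U8) and Snord13 (U13), have promoters of their own. Snhg genes are hosts whose spliced transcript is mostly non-coding, and many begin with the pyrimidine tract that also marks messengers of ribosomal proteins.

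The cells were of the NG4 line, a 129/Sv embryonic stem cell line with a GFP reporter of Nanog, kept on gelatin in a medium containing LIF, which holds such cells in the undifferentiated state. They had been transduced with pLKO.1-based lentivirus carrying a hairpin against Phf5a (shPhf5a), a hairpin against Paf1 (shPaf1) or a control hairpin (shControl), and all 3 groups were selected in puromycin at 2 μg/mL for 72 h. Phf5a is a subunit of the SF3b splicing complex, and Paf1 belongs to a complex bound to RNA polymerase II during elongation. According to its title the series concerns transcriptional elongation in pluripotency, and each group was measured on 3 Affymetrix arrays. Each group rests on 1 named hairpin in 1 cell line, and the labels do not say whether replicates were separate cultures or transductions, and p-values therefore cover only how far these arrays vary, perhaps for technical reasons. Total RNA was isolated on a silica column, a method that retains short RNAs poorly, and 125 ng was copied with a whole-transcript kit. A probe set placed inside a snoRNA can also bind the unspliced host transcript, so that the values do not separate mature snoRNA from its precursor. In such bulk samples, fewer cells of a type and less RNA per cell cannot be told apart.

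Phf5a stood at 34.4%, 55.9% and 39.6% of the control mean on the shPhf5a arrays, and Paf1 at 37.7%, 38.9% and 38.0% on the shPaf1 arrays. Of 10 embryonic stem cell markers 8 were called lower in shPhf5a and 8 in shPaf1, against 20.7% and 17.8% of all genes. The mean of the list was 10.2 to 10.5 on shPhf5a arrays, 10.2 on each shPaf1 array and 10.7 on each shControl array. Fibroblast markers were near the floor, with list means of 5.60 to 5.67 in shPhf5a, 5.83 to 5.89 in shPaf1 and 5.65 to 5.68 in shControl, and 2 of 6 were called higher in shPaf1: Dcn (0.57, adjusted p = 5.7e-05) and Col1a1, whose call was lost in 8 of 18 alternatives, among them the removal of any shControl array or of shPaf1 replicate 1 or 2 (adjusted p up to 0.136). None of the 5 blood and macrophage markers measured was called (list means of 5.30 to 5.45 in shPhf5a, 5.47 to 5.53 in shPaf1 and 5.39 to 5.52 in shControl). Values are log2 expression as deposited, with array medians of 6.22 to 6.31. The part of these markers in the results below was not tested. The shPhf5a arrays varied most: in a fit that weights arrays by their scatter, shPhf5a replicates 1 and 2 received weights of 0.46 and 0.35 against 1.04 or more for each other array.

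In shPaf1 most members had lower signal than in shControl. Of the 93 members 56 fell, or 60.2%, against 17.8% of all genes tested, and 4 rose, against 18% of all genes. A call means an adjusted p under 0.05 in limma over all 22180 genes. At least 2-fold, 18 members fell and 1 rose, against 0.978% and 1.91% of all genes. The median change of the members was −0.48 log2 units, beside −0.01 over all genes tested, and 83 of 93 changes were negative. All shPaf1 arrays lay below all shControl arrays for 68 members and above them for 6, where 25% and 23.2% of all genes did so, or 48.3% in either direction. The median over members, taken against the control mean, was −0.60, −0.45 and −0.54 on the 3 shPaf1 arrays, and −0.03, 0.05 and −0.04 on the shControl arrays.

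Depletion of Phf5a gave a mixed picture. Of the 93 members 29 fell, or 31.2%, against 20.7% of all genes, and 17 rose, against 16.7% of all genes. The share that rose is thus close to the background. At least 2-fold, 3 rose and 3 fell, against 2.07% and 1.22% of all genes. The median change was −0.10, beside −0.03 over all genes. All shPhf5a arrays lay below all shControl arrays for 30 members and above them for 17, against 25.9% and 19.9% of all genes. The 3 shPhf5a arrays differed among themselves, with medians over members of −0.25, 0.01 and −0.07. The number that fell was 38 without shPhf5a replicate 2 and 19 without shControl replicate 2. Both knockdowns are set against the same 3 control arrays, and the values of each are given side by side.

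By class, 17 of 26 H/ACA snoRNAs fell in shPaf1 and 1 rose, with a median of −0.56, and in shPhf5a 12 fell and 5 rose, with a median of −0.22. Of 47 C/D snoRNAs 28 fell and 2 rose in shPaf1 (median −0.51), while 11 fell and 8 rose in shPhf5a (median −0.10). Of all genes 17.8% fell and 18% rose in shPaf1, and 20.7% fell and 16.7% rose in shPhf5a. The C/D shares in shPhf5a, 23.4% lower and 17% higher, are thus close to the background, as is the 19.2% of H/ACA snoRNAs that rose there. Of 15 Snhg genes 9 fell and 0 rose in shPaf1 (median −0.40), and 5 fell and 3 rose in shPhf5a (median 0.03). Of the 5 scaRNAs 2 fell and 1 rose in shPaf1 (median −0.13), and 1 fell and 1 rose in shPhf5a (median 0.10). The 20% of scaRNAs that rose in each knockdown and the 20% that fell in shPhf5a are also close to the background. So is the 20% of Snhg genes that rose in shPhf5a. With so few members the scaRNA median in shPaf1 ranged from −0.30 to 0.10 as arrays were left out in turn. No class was tested against another.

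**Figure D1:**
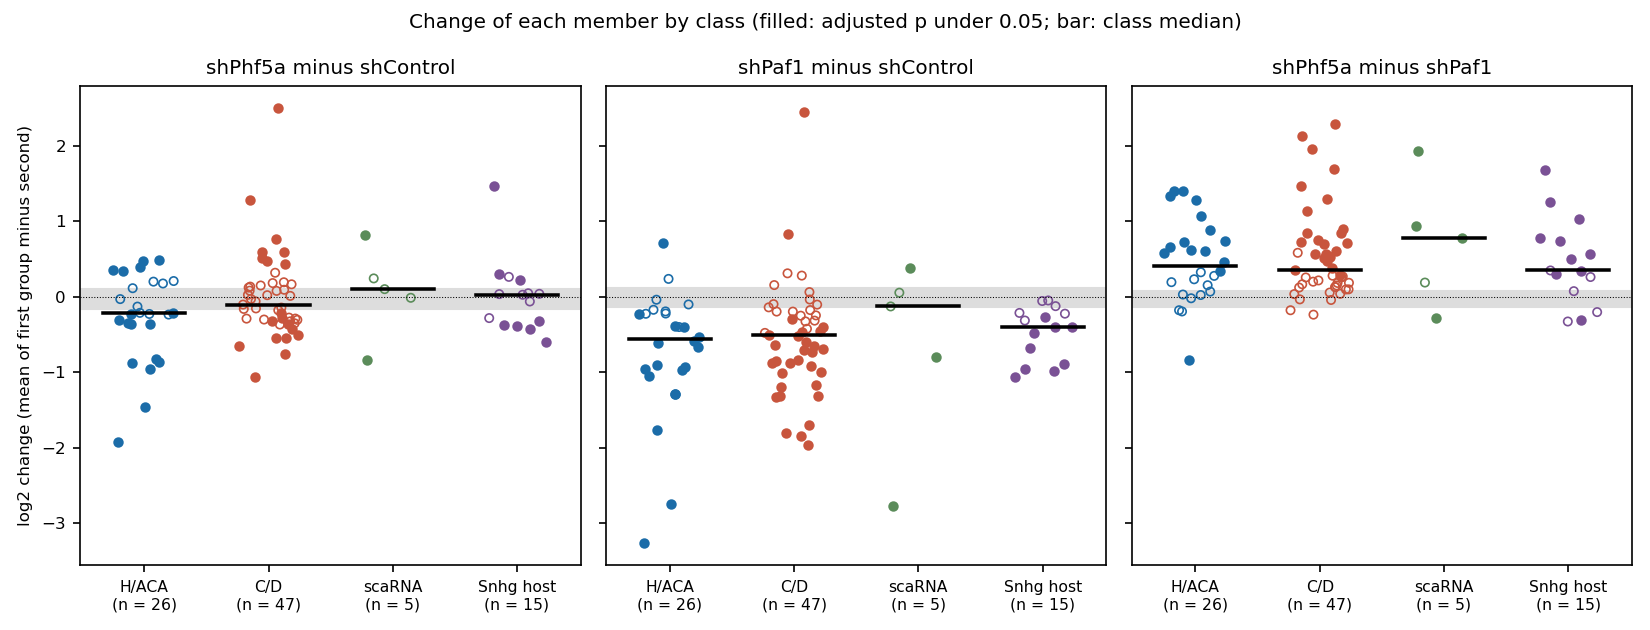
Log2 change of every member by class, for shPhf5a and shPaf1 against shControl and for shPhf5a against shPaf1 (right); each point is a gene, filled where it was called, bars are class medians and the grey band spans the quartiles of all genes. In shPaf1 the medians of the H/ACA, C/D and Snhg classes lie between −0.56 and −0.40, and in shPhf5a between −0.22 and 0.03.

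Among H/ACA snoRNAs, Snora15 had the largest fall in shPaf1 of all 22180 genes tested. It read 7.15, 8.33 and 7.77 on the shPhf5a arrays, 6.33, 6.30 and 6.59 on the shPaf1 arrays, and 9.52, 9.84 and 9.67 on the shControl arrays. Neither knockdown overlapped the controls, and shPaf1 was below shPhf5a on every array. Its signal fell 9.65-fold in shPaf1 (log2 change −3.27, SE 0.24, adjusted p = 7.41e-06) and 3.81-fold in shPhf5a (−1.93, SE 0.24, adjusted p = 0.000189). Snora34 followed the same order, with 9.83, 10.71 and 10.10 in shPhf5a, 8.85, 8.81 and 9.12 in shPaf1, and 11.56, 11.81 and 11.66 in shControl. That is a fall of 2.75 in shPaf1 (SE 0.19, adjusted p = 5.33e-06) and of 1.47 in shPhf5a (adjusted p = 0.000247). Both are guides of pseudouridylation that by position lie inside protein-coding genes.

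Snora69, which lies in the ribosomal protein gene Rpl39, read 10.00, 10.09 and 10.09 in shPhf5a, 8.56, 8.59 and 8.83 in shPaf1, and 10.39, 10.46 and 10.42 in shControl. The groups did not overlap, and the fall was 1.76 in shPaf1 (SE 0.07, adjusted p = 3.95e-07) against 0.36 in shPhf5a (adjusted p = 0.00276). Snora41, in the translation elongation factor gene Eef1b2, was lower in both knockdowns by more similar amounts: 6.74, 6.95 and 6.98 in shPhf5a, 6.45, 6.51 and 6.73 in shPaf1, and 7.56, 8.01 and 7.98 in shControl. Its changes were −0.96 (adjusted p = 0.000243) in shPhf5a and −1.29 (adjusted p = 3.52e-05) in shPaf1. Snora20, in the chaperonin gene Tcp1, was called only in shPaf1, with 7.54, 8.18 and 8.07 in shPhf5a, 6.74, 6.81 and 7.05 in shPaf1, and 8.19, 8.30 and 7.98 in shControl. shPhf5a overlapped shControl (−0.23, adjusted p = 0.319), and shPaf1 lay below both (−1.29 against shControl, adjusted p = 0.000155). The direct difference of shPhf5a over shPaf1 for Snora20 was 1.07 (adjusted p = 0.000786).

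Snora74a and Snora44 fell in both knockdowns by nearly the same amount, 0.87 in shPhf5a and 0.90 in shPaf1 for Snora74a, and 0.86 and 0.93 for Snora44. Snora73a and Snora73b, the U17 snoRNAs that act in cutting the small-subunit ribosomal RNA precursor, did otherwise. Snora73a read 11.03, 11.19 and 11.23 in shPhf5a, 10.61, 10.46 and 10.61 in shPaf1, and 10.88, 10.80 and 10.68 in shControl. It rose by 0.36 in shPhf5a (adjusted p = 0.00395), while the fall of 0.23 in shPaf1 (adjusted p = 0.0419) was lost in 8 of 18 alternatives, among them the removal of shControl replicate 1 or 2 or of any shPaf1 array, with adjusted p from 0.0135 to 0.156. Snora73b changed by 0.21 in shPhf5a (adjusted p = 0.199) and fell by 0.53 in shPaf1 (adjusted p = 0.00494).

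Snora33 was the only H/ACA snoRNA called higher in shPaf1, at 12.85, 12.89 and 12.88 against 12.09, 12.18 and 12.20 in shControl (0.71, adjusted p = 0.000522). A second probe set for it, with a mean of 7.94 where the kept one has 12.4, changed by −1.31 in shPaf1, and the mean of both changed by −0.30, so that the direction for Snora33 depends on the probe set. The dimmest H/ACA members, Snora19 and Snora35, had means of 5.78 and 5.76 and were not called in either knockdown.

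**Figure D2:**
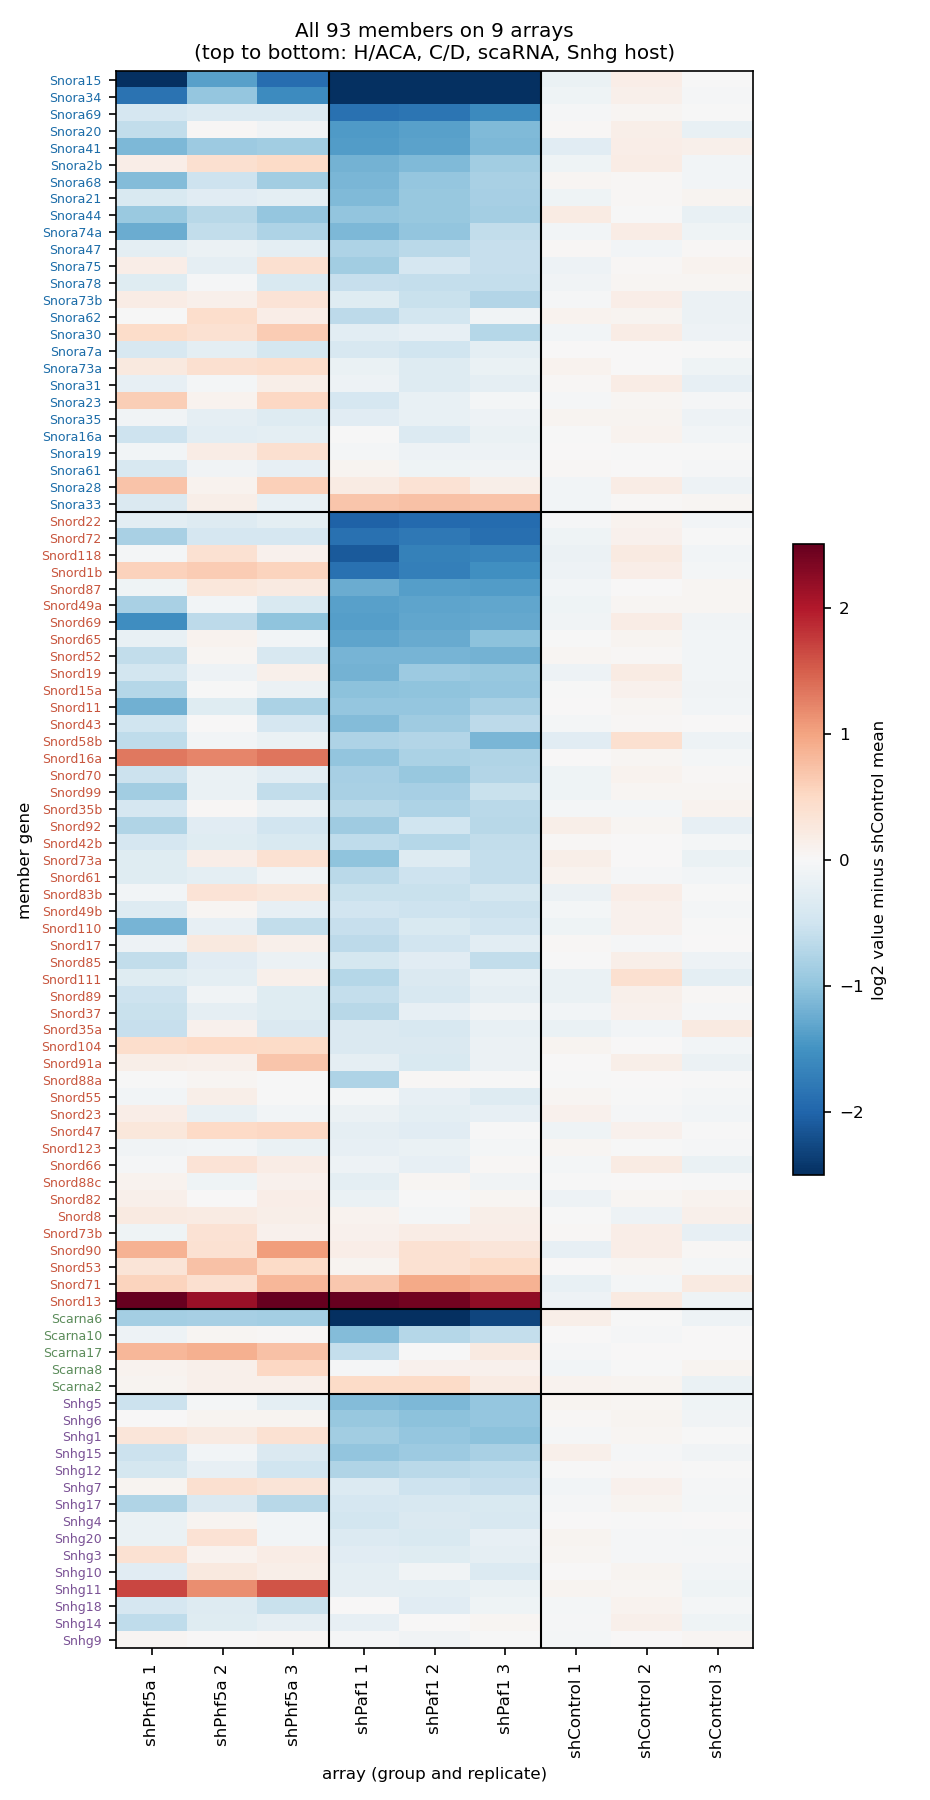
Values of all 93 members on each array as the log2 difference from the shControl mean, with arrays as columns (shPhf5a, shPaf1, shControl) and members from top to bottom by class; the colours saturate at the ends of the scale. The shPaf1 columns are mostly below 0, with array medians of −0.60, −0.45 and −0.54, and the shPhf5a columns are mixed.

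Among C/D snoRNAs transcribed from their own promoters, Snord13 and Snord118 had opposite calls in shPaf1. Snord13 (U13), which in human cells assists the acetylation of small-subunit ribosomal RNA, read 12.59, 12.07 and 12.58 in shPhf5a, 12.64, 12.32 and 12.12 in shPaf1, and 9.77, 10.14 and 9.80 in shControl. Every knockdown array was above every control array, and the knockdowns overlapped each other. It rose 5.69-fold in shPhf5a (2.51, SE 0.17, adjusted p = 7.71e-06) and 5.48-fold in shPaf1 (2.45, SE 0.17, adjusted p = 5.58e-06). shPhf5a differed from shPaf1 by 0.06 (SE 0.17, adjusted p = 0.869). It was the only member to rise at least 2-fold in shPaf1.

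Snord118 (U8), needed for maturation of the large-subunit ribosomal RNAs in Xenopus oocytes, was called in shPaf1 alone. It read 9.45, 9.89 and 9.62 in shPhf5a, 7.41, 7.82 and 7.86 in shPaf1, and 9.36, 9.72 and 9.43 in shControl. The shPhf5a arrays overlapped the controls (0.15, adjusted p = 0.493), whereas shPaf1 was 3.50-fold lower (−1.81, SE 0.15, adjusted p = 1.37e-05), and shPhf5a exceeded shPaf1 by 1.96 (adjusted p = 1.73e-05). The other small RNAs that lie in no other gene behaved differently again. Snord89 fell by 0.40 in shPaf1 (adjusted p = 0.0319), a call lost in 5 of 18 alternatives, among them the removal of shControl replicate 2 or 3 or of shPaf1 replicate 1 or 2 (adjusted p from 0.00414 to 0.123), and changed by −0.31 in shPhf5a (adjusted p = 0.0914). Scarna2 rose by 0.38 in shPaf1 (adjusted p = 0.00628), and its 0.10 in shPhf5a was not called (adjusted p = 0.423).

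C/D snoRNAs that by position lie inside other genes included the members that separated the knockdowns most. Snord1b, in the host gene Snhg16, read 8.39, 8.45 and 8.37 in shPhf5a, 5.94, 6.11 and 6.27 in shPaf1, and 7.69, 7.98 and 7.77 in shControl, so that the 3 groups lay apart in that order. It rose by 0.59 in shPhf5a (adjusted p = 0.000719) and fell by 1.71 in shPaf1 (adjusted p = 1.73e-06), and the direct difference of shPhf5a over shPaf1 was 2.30 (SE 0.09, adjusted p = 8.02e-07). Snord1b shares 2 other probe sets with the near-identical Snord1c. Those changed by −1.47 in shPaf1, and by 0.02 and −0.06 in shPhf5a with no call, so that the fall in shPaf1 was seen on all 3 and the rise in shPhf5a on 1.

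Snord16a, which by position lies inside Rpl4, had the same pattern at higher signal. It read 12.67, 12.58 and 12.69 in shPhf5a, 10.37, 10.57 and 10.60 in shPaf1, and 11.36, 11.40 and 11.32 in shControl. The rise was 2.44-fold in shPhf5a (1.29, SE 0.07, adjusted p = 2.49e-06), the fall was 1.80-fold in shPaf1 (−0.85, SE 0.07, adjusted p = 1.11e-05), and the direct difference was 2.13 (adjusted p = 4.09e-07). Snord104 moved likewise by smaller amounts, 0.47 in shPhf5a and −0.29 in shPaf1 (adjusted p = 0.000438 and 0.00713).

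Snord22 (U22), which in Xenopus takes part in making the small-subunit ribosomal RNA, lies in Snhg1. It read 9.10, 9.05 and 9.12 in shPhf5a, 7.34, 7.42 and 7.44 in shPaf1, and 9.35, 9.46 and 9.31 in shControl. All groups lay apart, with a fall of 1.97 in shPaf1 (SE 0.06, adjusted p = 1.11e-07) and of 0.28 in shPhf5a (SE 0.06, adjusted p = 0.00273). Snord72, in Rpl37, read 6.87, 7.25 and 7.25 in shPhf5a, 5.81, 5.88 and 5.79 in shPaf1, and 7.56, 7.78 and 7.67 in shControl, with falls of 0.55 (adjusted p = 0.00184) and 1.84 (adjusted p = 1.85e-06). Both were lowest in shPaf1.

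The largest falls of C/D snoRNAs in shPhf5a were those of Snord69 (−1.06, adjusted p = 0.00131), Snord11 (−0.76, adjusted p = 0.00712) and Snord110 (−0.66, adjusted p = 0.0215). Snord69 read 8.55, 9.45 and 9.10 in shPhf5a, 8.73, 8.79 and 8.81 in shPaf1, and 10.00, 10.28 and 10.01 in shControl, and the knockdowns overlapped each other. The call of Snord110 was lost without shControl replicate 2 or 3, without shPhf5a replicate 3 and in the fit of only the 6 arrays compared, with adjusted p from 0.00073 to 0.0752. Snord71 rose by 0.59 in shPhf5a (adjusted p = 0.00508) and 0.83 in shPaf1 (adjusted p = 0.000699). It read 8.31, 8.16 and 8.58 in shPhf5a, 8.42, 8.71 and 8.63 in shPaf1, and 7.57, 7.71 and 7.98 in shControl. The brightest C/D probe set, that of Snord49b, fell by 0.51 in shPaf1 (adjusted p = 0.00131), and its −0.16 in shPhf5a was not called (adjusted p = 0.204).

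**Figure D3:**
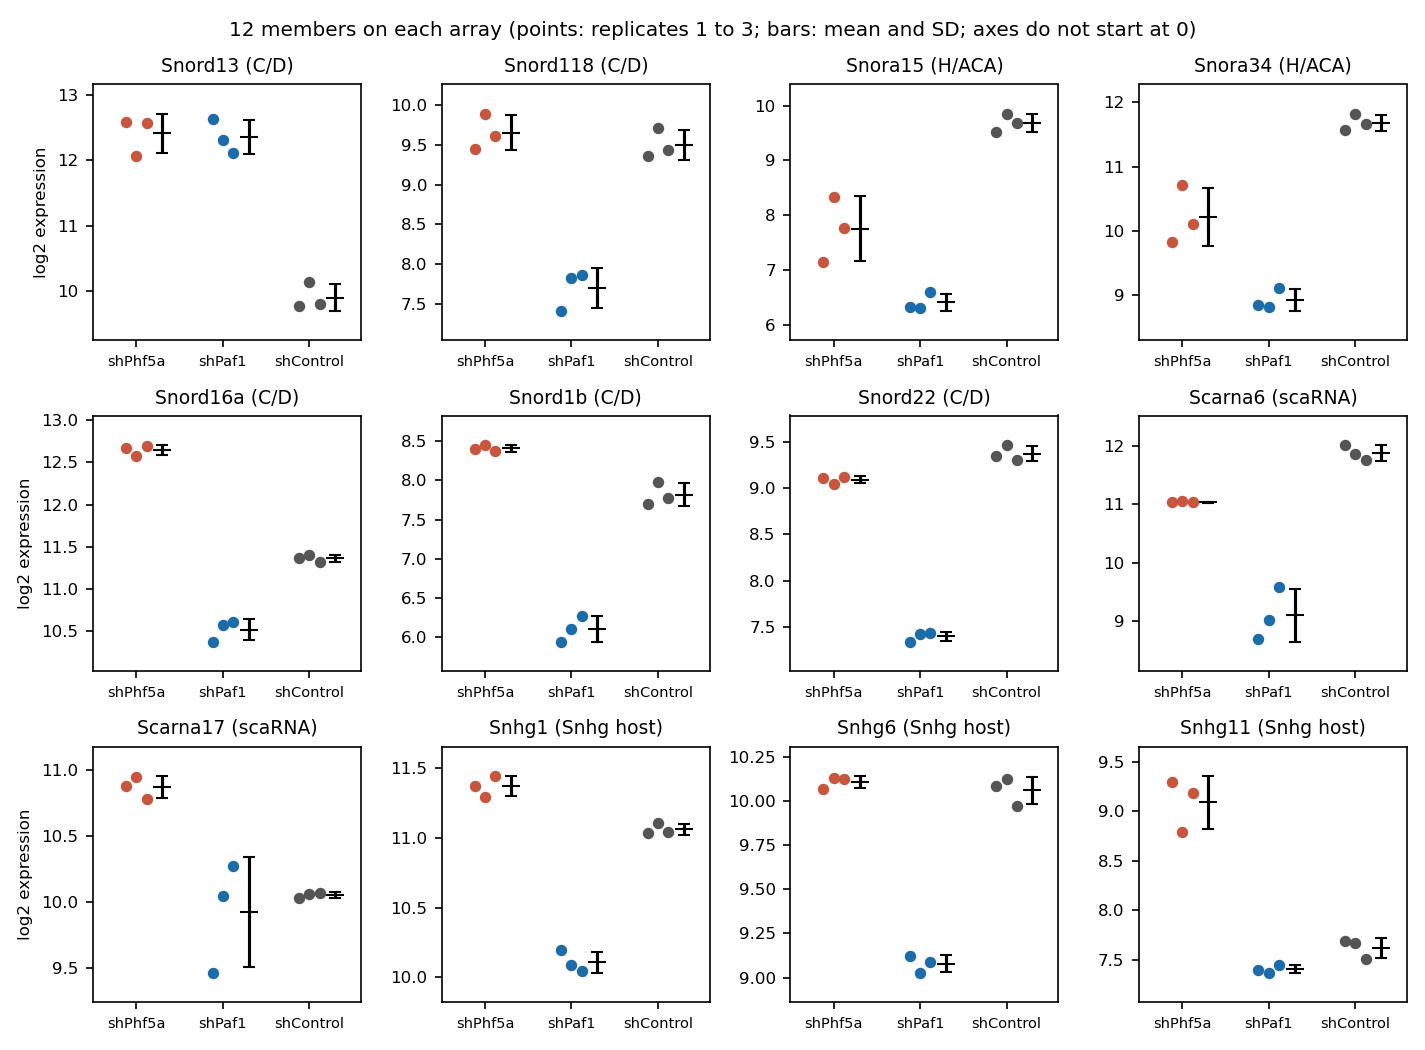
Log2 expression of 12 members on each array (points) with the mean and SD of each group of 3 (bars), in the order shPhf5a, shPaf1, shControl; the axes do not start at 0. Snord13 is high in both knockdowns, Snord118, Snord22 and Snhg6 are low in shPaf1, and Snord16a and Snord1b lie above shControl in shPhf5a and below it in shPaf1.

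Among scaRNAs, Scarna6 gave the second largest fall of any member in shPaf1. It read 11.03, 11.05 and 11.03 in shPhf5a, 8.69, 9.02 and 9.59 in shPaf1, and 12.02, 11.86 and 11.75 in shControl. The 3 groups did not overlap, and the fall was 6.86-fold in shPaf1 (−2.78, SE 0.18, adjusted p = 3.87e-06) and 1.79-fold in shPhf5a (−0.84, SE 0.18, adjusted p = 0.00451). Scarna10 fell in shPaf1 alone (−0.80, adjusted p = 0.000296) and was not called in shPhf5a (−0.01, adjusted p = 0.947), with a direct difference of shPhf5a over shPaf1 of 0.79 (adjusted p = 0.000519). Scarna17 rose in shPhf5a, where it read 10.88, 10.95 and 10.78, against 10.03, 10.06 and 10.07 in shControl (0.82, adjusted p = 0.00298). In shPaf1 it read 9.46, 10.04 and 10.27, a wide spread around the controls (−0.13, adjusted p = 0.631). Its second probe set changed by 0.70 in shPhf5a and −0.23 in shPaf1. Scarna8 was not called in either comparison.

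Among Snhg genes, the calls in shPaf1 were all falls, between −1.06 (Snhg5) and −0.27 (Snhg3). Snhg5, which contains snoRNA loci without a family symbol, read 9.87, 10.36 and 10.18 in shPhf5a, 9.34, 9.29 and 9.46 in shPaf1, and 10.49, 10.47 and 10.30 in shControl (−1.06 in shPaf1, adjusted p = 6.07e-05, and −0.28 in shPhf5a, adjusted p = 0.0773). Snhg6 read 10.07, 10.13 and 10.12 in shPhf5a, 9.12, 9.03 and 9.09 in shPaf1, and 10.09, 10.12 and 9.97 in shControl. Here shPhf5a and shControl overlapped (0.05, adjusted p = 0.56) and shPaf1 was 1.97-fold lower (−0.98, SE 0.05, adjusted p = 1.85e-06), with a direct difference of 1.03 (adjusted p = 2.46e-06). Snhg15 and Snhg12 fell by 0.90 (adjusted p = 0.000167) and 0.68 (adjusted p = 8.65e-05) in shPaf1.

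Snhg1, which contains Snord22 and further snoRNA loci of that kind, had opposite calls. It read 11.37, 11.30 and 11.44 in shPhf5a, 10.19, 10.09 and 10.04 in shPaf1, and 11.03, 11.11 and 11.04 in shControl. All groups lay apart, with a rise of 0.31 in shPhf5a (SE 0.06, adjusted p = 0.00199) and a fall of 0.95 in shPaf1 (SE 0.06, adjusted p = 2.74e-06). Snhg3, the host of both U17 snoRNAs, was called in the same directions (0.22, adjusted p = 0.0331, and −0.27, adjusted p = 0.0131). Those calls were less steady: the first was lost in 7 of 18 alternatives, among them the removal of shPhf5a replicate 1 or 3 or of any shControl array (adjusted p up to 0.094), and the second without shControl replicate 1 or shPaf1 replicate 2 or with quantile normalization (adjusted p up to 0.0943).

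Snhg11 rose most among the hosts, and in shPhf5a alone. It read 9.29, 8.79 and 9.19 in shPhf5a, 7.40, 7.37 and 7.45 in shPaf1, and 7.69, 7.67 and 7.51 in shControl. The shPhf5a arrays stood above all others, by 2.76-fold over shControl (1.47, SE 0.11, adjusted p = 1.51e-05), and shPaf1 was not called (−0.21, adjusted p = 0.195). The direct difference was 1.68 (adjusted p = 9.16e-06). Its dimmer probe set changed by 0.49 in shPhf5a and −0.18 in shPaf1. Snhg17 fell by 0.60 in shPhf5a (adjusted p = 0.000637) and 0.40 in shPaf1 (adjusted p = 0.00667) on its brightest probe set. Its other probe sets changed by 0.12 and 0.31 in shPhf5a and by −0.65 and −0.46 in shPaf1, and with the mean over its probe sets the call of Snhg17 in shPhf5a was lost (adjusted p = 0.575).

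Snhg14, the long transcript through the imprinted Ube3a region that hosts the Snord116 cluster, fell by 0.38 in shPhf5a (adjusted p = 0.0244) and was not called in shPaf1 (−0.06, adjusted p = 0.782). The first call was lost without shControl replicate 1 or 2 or shPhf5a replicate 1 (adjusted p from 0.0097 to 0.0942). Snhg9, Snhg10 and Snhg20 were not called against shControl in either knockdown.

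The starts of 6 Snhg genes are shown. Of the 9 hosts that fell in shPaf1 these include Snhg5, Snhg1, Snhg15, Snhg12 and Snhg3, without Snhg4, Snhg6, Snhg7 and Snhg17. Snhg1 and Snhg3 were called higher in shPhf5a, and the last gene shown, Snhg11, rose in shPhf5a alone. Each stretch holds 90 bases, 60 before and 30 from the annotated start on. They are from RefSeq on GRCm38.p6, written 5′ to 3′ on the gene's strand. Capitals mark TATA at positions −45 to −16 and CTTT at positions −10 to 20 counted from the start, each searched on both strands, where TATA is its own complement.
Snhg5 (chr9:88522868-88522957, minus strand): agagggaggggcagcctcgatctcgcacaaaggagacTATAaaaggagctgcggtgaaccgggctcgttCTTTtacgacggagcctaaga
Snhg1 (chr19:8723427-8723516, plus strand): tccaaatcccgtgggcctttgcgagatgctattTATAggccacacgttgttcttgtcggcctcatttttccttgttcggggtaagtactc
Snhg15 (chr11:6528731-6528820, minus strand): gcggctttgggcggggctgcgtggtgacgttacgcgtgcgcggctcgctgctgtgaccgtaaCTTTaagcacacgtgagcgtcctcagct
Snhg12 (chr4:132308618-132308707, plus strand): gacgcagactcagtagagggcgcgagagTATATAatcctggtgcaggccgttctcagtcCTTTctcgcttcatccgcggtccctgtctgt
Snhg3 (chr4:132353657-132353746, minus strand): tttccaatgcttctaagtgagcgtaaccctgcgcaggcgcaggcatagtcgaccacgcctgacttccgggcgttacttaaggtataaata
Snhg11 (chr2:158375653-158375742, plus strand): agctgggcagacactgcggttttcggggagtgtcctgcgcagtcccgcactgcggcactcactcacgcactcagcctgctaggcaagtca
TATA stood in its window in 4 of the 13 Snhg genes in the table (Snhg1, Snhg12, Snhg5 and Snhg7), and in 6.72% of all 32851 promoters there. CTTT stood in its window in 5 of 13 (Snhg10, Snhg12, Snhg15, Snhg5 and Snhg9), and in 21.8% of all promoters. Neither Snhg3, which fell in shPaf1, nor Snhg11 held either motif in these windows. Snhg9 and Snhg10, which held CTTT, were not called against shControl in either knockdown. The 4 genes with TATA were all called lower in shPaf1, and so were Snhg3 and Snhg15 without it. Whether either motif goes with the calls was not tested. A match is a description of the sequence and no evidence of a site.

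Set directly against each other, 50 of 93 members were higher in shPhf5a than in shPaf1, or 53.8%, against 12.7% of all genes, and 3 were lower, against 16.3%. At least 2-fold, 16 were higher and 0 lower, against 0.717% and 0.897% of all genes. The median difference was 0.35, beside −0.02 over all genes. By class, 14 of 26 H/ACA snoRNAs, 24 of 47 C/D snoRNAs, 3 of 5 scaRNAs and 9 of 15 Snhg genes were higher in shPhf5a. The members lower in shPhf5a were Snora33, whose probe sets disagree, Scarna2 (−0.28, adjusted p = 0.0367) and Snhg18 (−0.31, adjusted p = 0.0224), and the last 2 calls were lost as arrays of either knockdown were left out (adjusted p up to 0.13 for Scarna2 and 0.0873 for Snhg18).

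Members called higher in shPhf5a and lower in shPaf1 against the same shControl arrays were Snord1b, Snord16a, Snord104, Snora2b, Snora30, Snora73a, Snhg1 and Snhg3, and for each of these the direct difference was called. Snora2b read higher in shPhf5a than in shPaf1 by 1.40 (SE 0.11, adjusted p = 2.17e-05), Snora30 by 0.89 (adjusted p = 0.000972), Snora73a by 0.59 (adjusted p = 0.000341), Snhg1 by 1.26 (adjusted p = 1.24e-06) and Snhg3 by 0.50 (adjusted p = 0.000638). Against shControl, Snora30 changed by 0.49 in shPhf5a (adjusted p = 0.018) and −0.40 in shPaf1 (adjusted p = 0.048). Its fall was lost in 10 of 18 alternatives, among them the removal of any shControl array, of shPhf5a replicate 1 or 3, or of shPaf1 replicate 1 or 3 (adjusted p from 0.0233 to 0.172), and its rise without shControl replicate 1 or 3 or shPhf5a replicate 3 (adjusted p up to 0.0733). Calls were steadier in shPaf1, where 50 of 56 falls held in every alternative, than in shPhf5a, where 16 of 29 falls and 12 of 17 rises did.

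Small RNAs were then compared with the genes that contain them. By position in the RefSeq gene table, 68 of the 78 small RNA members lie inside exactly 1 other gene, 6 inside several and 4 inside none (Snord118, Snord13, Snord89 and Scarna2). The containing gene was measured for 58, in 44 distinct genes. In shPaf1 37 of the 58 small RNAs fell, and of their hosts 27 were also lower, 9 were not called and 1, Srcap, was higher. Of the 44 hosts 28 fell and 3 rose in shPaf1, against 17.8% and 18% of all genes. The median change was −0.61 over the 58 small RNAs and −0.27 over the 44 distinct hosts, and 46 of 58 small RNAs changed by more than their host. In shPhf5a 22 small RNAs fell, with the host lower for 10, not called for 8 and higher for 4, and 8 rose, with the host higher for 4, lower for 2 and not called for 2. Of all genes 20.7% fell and 16.7% rose in shPhf5a. The medians there were −0.19 over small RNAs and −0.00 over distinct hosts. Across the 58 pairs, which share arrays and in part hosts, Pearson's r between the 2 changes was 0.35 in shPhf5a and 0.18 in shPaf1, as a description.

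The hosts around the small RNAs that fell most in shPaf1 changed less than those RNAs, by differing amounts. Because these small RNAs were chosen by the size of their fall, a smaller change of the host is in part built in. Cct6a, the chaperonin subunit gene around Snora15, fell by 0.62 (adjusted p = 0.00011) in shPaf1, where Snora15 fell by 3.27. Kansl2, a subunit gene of a histone acetyltransferase complex that contains Snora34, was called lower by 0.20 (adjusted p = 0.0301), beside a fall of 2.75 for Snora34. That call of Kansl2 was lost without shControl replicate 1 or 3 or without shPaf1 replicate 2 or 3 (adjusted p up to 0.116). Atg16l1, an autophagy gene, changed by 0.07 (adjusted p = 0.443) around Scarna6, which fell by 2.78. Larger falls were those of Snhg1, by 0.95 (adjusted p = 2.74e-06) around Snord22, which fell by 1.97, and of Rpl37, by 0.90 (adjusted p = 0.000252) around Snord72, which fell by 1.84. Rpl39, around Snora69, which fell by 1.76, changed by −0.14 (adjusted p = 0.454). The reverse was seen at Tpt1, the gene of a translationally controlled protein, which fell by 1.82 (adjusted p = 4.71e-06) in shPaf1 around Snora31, whose −0.22 was not called (adjusted p = 0.17). Srcap, a chromatin remodeller gene, rose by 0.84 in both knockdowns (adjusted p = 0.000273 in shPhf5a and 0.000247 in shPaf1), and its Snora30 was called in opposite directions.

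**Figure D4:**
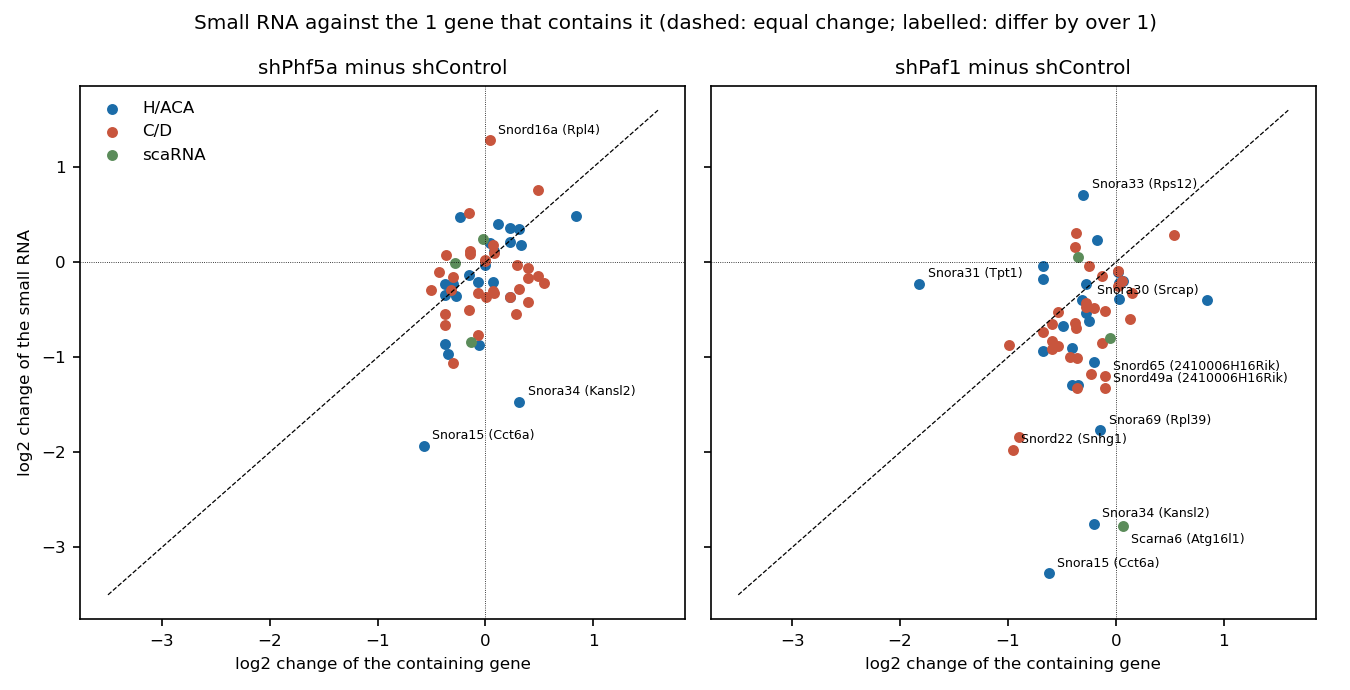
Log2 change of each of 58 small RNAs (vertical) against that of the 1 measured gene that contains it (horizontal), for shPhf5a and shPaf1; the dashed line marks equal change, and pairs that differ by over 1 are labelled. In shPaf1 most points lie below the line, with medians of −0.61 over small RNAs and −0.27 over the 44 distinct hosts.

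Hosts were also grouped by kind. In shPaf1, 10 of 13 small RNAs in ribosomal protein genes fell, as did 8 of the 11 host genes. Medians were −0.65 over these small RNAs and −0.38 over the hosts, each host counted once here and below. Of 9 small RNAs in Snhg genes 6 fell (median −0.53, and −0.40 over 5 hosts). Snhg12 (−0.68) holds several of these small RNAs, so that a host median over pairs would be lower, at that value. Of 36 in other genes 21 fell (median −0.56, and −0.20 over 28 hosts). In shPhf5a the small RNA that rose in a ribosomal protein gene was Snord16a, whose host Rpl4 changed by 0.04 (adjusted p = 0.538).

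Values of small RNAs that share a host are given side by side, and differences between them were not tested. Kansl2 holds Snora34, which fell by 1.47 in shPhf5a, and Snora2b, which was called higher there (0.35, adjusted p = 0.0334) with arrays of 8.62, 8.87 and 8.93 against 8.35, 8.64 and 8.39 in shControl. These overlap, and the call was lost when shControl replicate 1 or 3, or shPhf5a replicate 2 or 3, was removed (adjusted p up to 0.123). In shPaf1 both fell, by 2.75 for Snora34 and 1.05 for Snora2b. Wdr43, a ribosome assembly gene, holds Snord53, which rose by 0.51 in shPhf5a (adjusted p = 0.00747), and Snord92, which was called lower there (−0.51, adjusted p = 0.0163), a call lost without shControl replicate 1 or 2 or shPhf5a replicate 1 (adjusted p up to 0.0683). Gnl3, the nucleostemin gene, holds Snord69 and Snord19: in shPhf5a the first fell by 1.06 and the second changed by −0.15 (adjusted p = 0.469), and in shPaf1 they fell by 1.32 and 1.01. Nop58, itself a C/D protein gene, holds Snord11 and Snord70, which fell in shPaf1 by 0.91 and 0.83.

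Snhg12 holds 4 measured small RNAs. In shPaf1 Snora44 fell by 0.93 and Snord99 by 0.73, whereas Snora16a (−0.17, adjusted p = 0.225) and Snora61 (−0.04, adjusted p = 0.787) were not called, beside −0.68 for Snhg12 itself. The gene 2410006H16Rik, a non-coding host, holds Snord49a, Snord49b and Snord65, which fell in shPaf1 by 1.32, 0.51 and 1.20 while their host was not called (−0.10, adjusted p = 0.293), except without shPaf1 replicate 1 (adjusted p = 0.0392). In shPhf5a that host rose by 0.40 (adjusted p = 0.00105), and Snord65 (−0.06, adjusted p = 0.657) and Snord49b were not called. Snord49a was called lower there (−0.42, adjusted p = 0.0484), with arrays that overlapped shControl. Its call was lost in 11 of 18 alternatives, among them the removal of any array but shPhf5a replicate 2 (adjusted p up to 0.127).

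**Figure D5:**
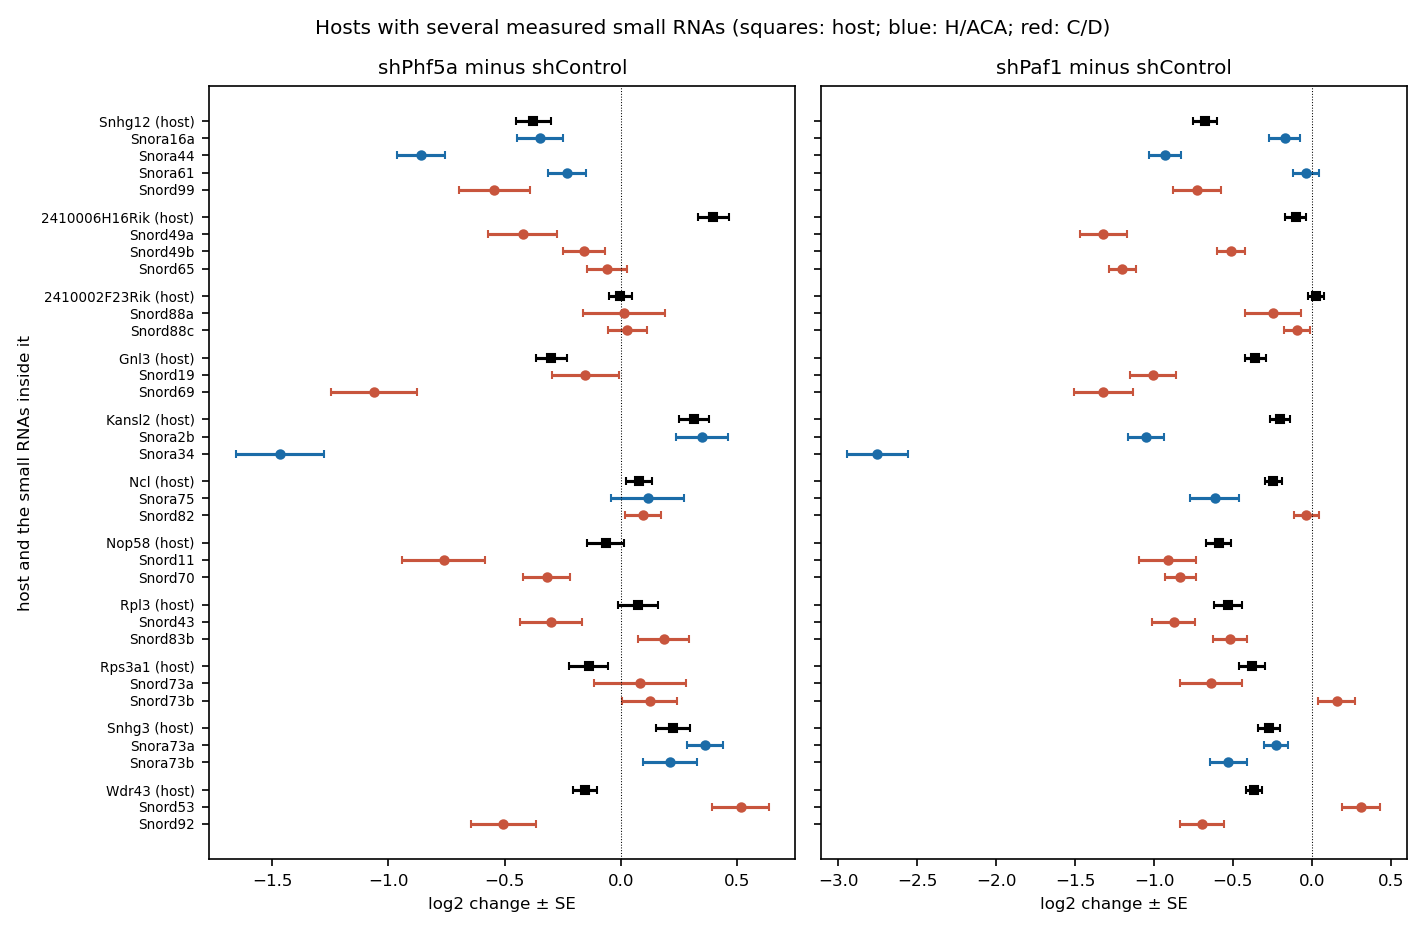
Log2 change (with SE) of each host that contains more than 1 measured small RNA (black squares) and of those small RNAs (circles), for shPhf5a and shPaf1. In shPaf1 Snora34 lies at −2.75 and Snora2b at −1.05 inside Kansl2, which lies at −0.20.

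Genes that make or bind these RNAs were read from lists. For the counts in this and the following lists, 16.7% of all genes rose and 20.7% fell in shPhf5a. In shPaf1 the shares were 18% and 17.8%. Of 6 H/ACA protein genes 6 fell in shPhf5a and 4 in shPaf1, with medians of −0.57 and −0.49. Dkc1, the pseudouridine synthase, fell by 0.52 (adjusted p = 0.000446) in shPhf5a and 0.67 (adjusted p = 8.86e-05) in shPaf1, and Shq1, a chaperone of Dkc1, fell by 0.77 and 0.62. Of 4 measured C/D protein genes 2 fell in each knockdown: the core proteins Nop56 (−0.37) and Snu13 (−0.38) in shPhf5a, and Nop56 (−0.20) and Nop58 (−0.59) in shPaf1. Fbl, the methyltransferase of this class, was not analysed here. The call of Nop56 in shPaf1 was lost without shPaf1 replicate 3 (adjusted p = 0.051) and with quantile normalization (adjusted p = 0.258). A brighter probe set, shared by Snord57 and Nop56, was not called in a limma fit of all probe sets. It changed by 0.11 in shPhf5a (adjusted p = 0.345) and −0.09 in shPaf1 (adjusted p = 0.486). The falls of Nop56 thus depend on the probe set.

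Of 12 assembly and Cajal body genes 9 fell in shPhf5a and 6 in shPaf1, and 0 rose. Pih1d1, a subunit of the chaperone complex that builds snoRNPs, fell by 1.05 (adjusted p = 3.67e-05) in shPhf5a and 0.74 (adjusted p = 0.000222) in shPaf1, and Znhit3, another assembly factor, by 1.17 (adjusted p = 0.000119) in shPhf5a. Wrap53, which brings scaRNAs to Cajal bodies, was not called (0.11 and 0.12). The list medians were −0.44 in shPhf5a and −0.30 in shPaf1.

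Of 10 genes of intron release and trimming, 2 rose and 5 fell in shPhf5a, and 3 rose and 2 fell in shPaf1. The 2 that rose in shPhf5a and the 2 that fell in shPaf1 are near the shares of all genes, 16.7% and 17.8%. Aqr, a helicase of the spliceosome at intronic snoRNAs, rose by 0.59 (adjusted p = 3.89e-05) in shPhf5a and 0.47 (adjusted p = 0.000113) in shPaf1. Parn, a deadenylase that trims H/ACA RNAs, fell by 0.71 (adjusted p = 0.000126) and 0.53 (adjusted p = 0.00059), and the exosome subunit Exosc3 fell by 0.53 and 0.64. The lists above, the decay factors and the RNAs below were not tested as sets.

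Of 7 measured genes of nonsense-mediated decay, a pathway that removes many spliced Snhg transcripts, 4 rose and 0 fell in each knockdown. Upf2, a core factor, rose by 1.27 (adjusted p = 4.43e-06) in shPhf5a and 0.29 (adjusted p = 0.0128) in shPaf1, where the call was lost without shPaf1 replicate 2 (adjusted p = 0.0553). Smg6, the endonuclease of the pathway, rose by 0.65 and 0.75. The median of the list was 0.15 in shPhf5a and 0.26 in shPaf1. The 3 measured non-coding snoRNA hosts that are not named Snhg fell in shPaf1: Zfas1 by 1.00 (adjusted p = 0.000125), Epb41l4aos by 0.88 (adjusted p = 8.14e-05) and Dancr by 1.02 (adjusted p = 0.00177). In shPhf5a Epb41l4aos alone was called (−0.49, adjusted p = 0.00297).

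Of 9 measured small structured RNAs outside the family, 4 rose and 4 fell in shPhf5a, and 5 fell and 0 rose in shPaf1. Rn7sk, a regulator of polymerase II elongation, was not called in either knockdown (0.02 and −0.03), and Terc, the H/ACA-type telomerase RNA, was called higher by 0.19 in shPhf5a (adjusted p = 0.00649), a call lost with quantile normalization, and was not called in shPaf1 (−0.01, adjusted p = 0.855). Rnu3a (U3), a C/D RNA that takes part in cutting the ribosomal RNA precursor, rose by 1.32 (adjusted p = 2.75e-05) in shPhf5a. It was called lower in shPaf1 (−0.43, adjusted p = 0.015), where the call was lost without shControl replicate 2 (adjusted p = 0.0642) or shPaf1 replicate 3 (adjusted p = 0.061). Rny3, the Y RNA of Ro particles, fell in both, by 2.10 (adjusted p = 4.06e-05) in shPhf5a and 1.96 (adjusted p = 4.26e-05) in shPaf1.

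Several members were not called against shControl in either knockdown. Snord82, in the nucleolin gene, read 11.36, 11.24 and 11.40 in shPhf5a, 11.09, 11.24 and 11.30 in shPaf1, and 11.11, 11.28 and 11.34 in shControl, so that all groups overlapped. Its changes were 0.09 and −0.04. The other small RNA of that host, Snora75, fell by 0.62 in shPaf1 (adjusted p = 0.0111). By probe-set level, 79 of the 93 members lay above the median of all gene means (6.70) and 14 did not, 10 of them C/D snoRNAs. Dim probe sets of this kind are nearer to background and can show less change than there was.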

How the data were processed

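RNA of 9 samples was measured on Affymetrix arrays, 3 each for shPhf5a, shPaf1 and shControl, grouped by their titles. Each array has 1 value per probe set on a log2 scale, as deposited by the authors. The sources used here do not give their software, background correction or normalization, and the log2 scale was inferred from a range of 4.35 to 13.7. Another base would alter folds but not calls. Scan dates and detection calls were not used, so that no batch could be tested. Of 33793 probe sets, 23521 had 1 symbol in the platform annotation, 1814 had several and 8458 had none listed, which gave 22180 genes. All 93 members were found by gene ID in the RefSeq gene table. Containing genes were found there by position on GRCm38.p6. The table has no strand, so that "containing" does not mean the same strand. No build is given for the array.

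limma 3.58.1 (lmFit and eBayes, R 4.3.3) was fitted to all 22180 genes and 9 arrays, which share 1 estimate of the spread, with Benjamini-Hochberg adjustment at 0.05. The scripts were tested on simulated data. The precision is limited by 3 arrays per group. Named members were, among called members above the median level whose arrays do not overlap, the 4 largest rises and falls per class and knockdown (3 in the direct comparison), those called in opposite directions, and the 3 brightest per class. Further names (Snora44, Snord53, Snord82 and other small RNAs of shared hosts, members in no other gene, and members not called) were chosen after their values were seen. The members and all lists were chosen with earlier results of these data known. Alternatives were 9 other fits or filters and the removal of each of 9 arrays.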

Additional observations from a re-analysis of the deposited data

How the results depend on the processing

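Across 18 alternatives to the fit, 240 of 252 values of counts of called members and class medians stayed within 1.5 times the reported count or within 1 SD between arrays and 12 moved. With arrays left out in turn, members called lower in shPhf5a numbered 19 to 38 (19 without shControl replicate 2) and higher 12 to 19. In shPaf1 51 to 61 were lower and 4 to 6 higher, and in the direct comparison 47 to 56 were higher and 2 to 4 lower. The sign of the scaRNA median in shPaf1 (−0.30 to 0.10) and of the Snhg median in shPhf5a was not steady. The scaRNA median in shPhf5a was 0.020 to 0.14 with arrays left out and 0.18 with quantile normalization. The Snhg median in shPhf5a was −0.12 to 0.027, and that in shPaf1 −0.40 to −0.37, −0.33 with quantile normalization and −0.46 with centred arrays. The H/ACA median in shPaf1 was −0.59 to −0.50, and −0.62 with centred arrays. With the probe sets of each gene averaged, some signs turned: Snhg17 became 0.45 in the direct comparison, Snora33 −0.30 in shPaf1, Kansl2 −0.013 and Rpl4 −0.30 in shPhf5a, and Tent4b −0.29 in shPaf1 and 0.44 in the direct comparison; the averaging of probe sets that disagree makes these values. Deviations of arrays with the same replicate number in their titles correlated between −0.06 and 0.11. Such weak values give no sign of pairing but cannot show that the arrays were unpaired. With the replicate block, 57 members were lower and 5 higher in shPaf1, and 29 lower and 16 higher in shPhf5a. Of 6768 alternative values for single named genes, 6362 kept direction and call, 253 lost the call, 147 gained one and 6 changed sign. Dim members, unstated replicate origin, 1 hairpin per gene and unstated normalization limit all values.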

Other observations

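Probe sets that carry the symbol of a small RNA together with that of another gene, which the counts above leave out, were read in a fit of all probe sets. Apart from Snord116, 30 such sets were found, of which 23 were lower and 1 higher in shPaf1 (median −0.63), and 8 were lower and 5 higher in shPhf5a (median −0.13). In the main fit 17.8% of all genes were lower and 18% higher in shPaf1, and 20.7% and 16.7% in shPhf5a. The counts in shPhf5a are thus near that background. The set shared by Snord14a and Rps13 fell by 1.85 in shPaf1 (adjusted p = 7.41e-05) and 0.80 in shPhf5a (adjusted p = 0.00914), and that of Snord12 and Zfas1 by 1.64 (adjusted p = 0.0017) in shPaf1 and 1.13 (adjusted p = 0.0133) in shPhf5a. The set of Snora3, Gm13981 and Rpl27a rose by 0.60 in shPhf5a (adjusted p = 0.000183) and fell by 0.99 in shPaf1 (adjusted p = 7.96e-06), as did that of Snord34 and Rpl13a (0.81 and −0.51). The set that rose in shPaf1 was that of Scarna13, a scaRNA inside Snhg10, and Mir3069. It averaged 9.98 ± 0.38 in shPhf5a, 10.0 ± 0.47 in shPaf1 and 8.80 ± 0.06 in shControl (SD, n = 3 each), which limma called in both comparisons (1.18, adjusted p = 0.00453, and 1.21, adjusted p = 0.00395).

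The 16 sets of the Snord116 cluster, C/D snoRNAs of the imprinted Ube3a region with near-identical copies, read almost alike. They are 1 signal rather than 16. Each of these sets names Snord116l1 and Snord116l2 together with Gm26504. The sets therefore do not separate the snoRNAs from Gm26504. They were higher by 2.12 in shPaf1 and 0.59 in shPhf5a, and lower by 1.53 in shPhf5a than in shPaf1. Snhg14, the host of the Snord116 cluster, changed by −0.06 in shPaf1 (adjusted p = 0.782) on its own probe set. These sets were chosen after their values were seen.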
